A study of Mus musculus with 6 samples.

Results

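Tubulin messenger RNA was followed through 10 genes that encode the alpha and beta subunits of the microtubule, Tuba1a, Tuba1b, Tuba1c, Tuba4a, Tubb2a, Tubb2b, Tubb3, Tubb4a, Tubb5 and Tubb6. The members are a list of gene names, 10 of the 24411 genes with a value in each library, and the rule that picked them uses no measured value. Tubb4b, an abundant beta tubulin, is not on the list. All 10 were expressed well enough to be tested.

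The tissue was sensory epithelium dissected from the mouse cochlea at postnatal day 9 (P9), before the onset of hearing. Kir2.1-OE mice carried Otof-rtTA, which drives a doxycycline-dependent activator under the Otof promoter, active in hair cells, together with a tet-o-Kir2.1-IRES-tau-lacZ transgene, so that doxycycline (DOX) turns on the inwardly rectifying K+ channel Kir2.1. Control mice were littermates, labelled WT, that carried Otof-rtTA without the Kir2.1 transgene. Mice of both genotypes were of the C57BL/6N strain. The study put 0.5 mg/ml DOX in the drinking water of pregnant and nursing females, and of pups once weaned. The P9 pups of both genotypes were thus exposed through their mothers. The transgene also encodes a tau-lacZ reporter, and tau is a microtubule-binding protein, so the groups differ by the reporter as well as by the channel. Each genotype had 3 libraries, each from a pool of 8 cochleae from 4 mice, so that the pool is the replicate. Between 35430940 and 41205047 reads were assigned to genes in a library. The Otof promoter acts in hair cells, whereas the libraries hold RNA of every cell in the dissected tissue, so fewer cells of a type and less RNA per cell cannot be told apart in any value given here. Kcnj2, which encodes Kir2.1, had 235.77, 228.07 and 225.97 normalized counts in control replicates 1 to 3 and 3611.9, 3813.3 and 2213.1 in Kir2.1-OE replicates 1 to 3, so that all 6 libraries sorted as their labels say. Hair cell markers were present in every library, with summed normalized levels of 45931 to 51471 in controls and 47428 to 56361 in Kir2.1-OE mice. Of the 9 markers 3 were called higher (Otof, Slc26a5 and Ikzf2) and none lower, against 15.3% and 5.07% of all genes tested. Once the length and GC trends described below were allowed for, Slc26a5 alone was called higher, against 7.46% of all genes. The log2 fold change of Otof then went from 0.76 to 0.00 (0.00452). That of Ikzf2 went from 0.60 to 0.42, still under an edgeR adjusted p of 0.05 but within 1.5-fold.

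Alpha and beta tubulin join as a heterodimer, and heterodimers add end to end to form the microtubule. The genes of each kind, called isotypes, encode proteins that differ mainly in the tail at the C-terminal end, where enzymes add or remove tyrosine and glutamate chains. Cells adjust tubulin synthesis to the pool of free dimers by degrading tubulin mRNA while it is translated, and the signal for this is the start of the new chain as it leaves the ribosome. In the organ of Corti, supporting cells known as pillar and Deiters' cells carry dense bundles of microtubules, and class III beta tubulin, encoded by Tubb3, is a common marker of the auditory neurons.

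Coding sequences from the GENCODE vM21 annotation of the mm10 genome show why some of these genes are hard to count apart. The first 30 coding bases of 4 of them are given, with the 4 codons that carry the autoregulation signal in capitals. In the genetic code these codons read as 1 peptide in all 4 alpha genes and as 1 other peptide in all 6 beta genes.
Tuba1a: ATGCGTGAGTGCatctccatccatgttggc
Tuba4a: ATGCGCGAGTGCatttcagtccatgtgggg
Tubb2b: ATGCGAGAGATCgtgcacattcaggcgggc
Tubb3: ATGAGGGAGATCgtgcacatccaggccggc

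The last 60 coding bases, which include the tail and the stop codon, are nearly the same in Tubb2a and Tubb2b. Bases that differ between them are in capitals, 3 of 60. Tuba4a is shown beneath, in lower case throughout, because it is the alpha gene whose product lacks the final tyrosine, and its last codon before the stop is gag.
Tubb2a: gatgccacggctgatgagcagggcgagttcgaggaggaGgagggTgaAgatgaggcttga
Tubb2b: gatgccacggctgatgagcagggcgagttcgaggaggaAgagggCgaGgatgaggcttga
Tuba4a: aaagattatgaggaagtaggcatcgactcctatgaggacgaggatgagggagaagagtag

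Over the whole coding sequence, Tuba1a and Tuba1b were 98.3% identical and Tubb2a and Tubb2b 96.5%. Tuba1a, Tuba1b and Tuba1c lie together on chromosome 15, at chr15:98949837-98953703, chr15:98931425-98934565 and chr15:99029891-99038110. Tubb2a and Tubb2b lie side by side on chromosome 13, at chr13:34074274-34078007 and chr13:34126748-34130466. The other members are single, Tuba4a at chr1:75214228-75219865, Tubb3 at chr8:123411424-123422015, Tubb4a at chr17:57080066-57087782, Tubb5 at chr17:35833921-35838306 and Tubb6 on chromosome 18. All of these are protein-coding genes, and the reads counted were those of their annotated transcripts as a whole.

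The estimates carry the trace of this likeness. Runs of 31 bases were taken from a single annotated transcript of each gene, that with the longest coding sequence. Of these runs, 77% for Tuba1a, 75.4% for Tuba1b, 63.9% for Tuba1c, 56.4% for Tubb2a and 45.9% for Tubb2b also occur in another gene, pseudogenes included. For Tuba4a, Tubb3, Tubb4a, Tubb5 and Tubb6 the share was between 1.87% and 4.43%. The read estimates of Tuba1a, Tuba1b, Tuba1c, Tuba4a, Tubb2a and Tubb2b were not whole numbers, as printed in the files, in any of the 6 libraries, so reads had been split between genes there, and those of the other 4 genes were whole in all 6. The sum of Tubb2a, Tubb2b and the pseudogene Tubb2a-ps2 was whole, within 0.01 reads, in 6 of 6 libraries, whereas that of Tuba1a, Tuba1b and Tuba1c was whole in 0 of 6. Between 45.4% and 57% of the 31-base runs of the Tuba1 genes also occur in the pseudogenes Gm17383 and Gm3226, so reads may have been split with genes outside that sum. Sums over near-identical genes are given beside the single values. Tuba4a also overlaps Stk16 on the opposite strand, and the strand setting of the counting was not stated, so its level holds that uncertainty.

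Among the 4 alpha genes a single one made up most of the mRNA. Divided by transcript length and by TMM-scaled library size (RPKM), Tuba1a stood at 1891 ± 189 (SD, n = 3) in controls, at the 99.9th percentile of the genes tested. Tuba1b followed at 731.8 ± 40, then Tubb5 at 239.3 ± 12.1, Tubb2a at 195.7 ± 8.73 and Tubb2b at 123.8 ± 22.7 RPKM. Among the 10 genes, each of these levels stood apart from its neighbours in all 3 control libraries. Tubb4b, outside the list, had 713.5 ± 54.4 RPKM, about the level of Tuba1b. Tuba1c (41.45 ± 3.79 RPKM), Tuba4a (37.22 ± 2.01 RPKM) and Tubb3 (37.15 ± 6.34 RPKM) overlapped each other in turn, and their order cannot be read from these libraries. Tubb4a at 24.08 ± 3.38 and Tubb6 at 6.204 ± 0.986 RPKM were lowest, the last near the middle of all genes tested, at percentile 50.1.

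Against this background, Kir2.1-OE pools held less mRNA of several abundant isotypes per assigned read. At a Benjamini-Hochberg adjusted p under 0.05 in the quasi-likelihood test of edgeR, 5 of the 10 genes were lower (Tuba1a, Tuba1b, Tuba1c, Tubb2b and Tubb5) and 0 higher. Over all 15303 genes tested, 23.5% were lower and 27.1% higher by that rule. With a fold change above 1.5 required as well, the rule for a call, Tubb2b was lower and no member was higher, against 5.07% lower and 15.3% higher of all genes. Of the genes called, 75% were higher with the TMM scaling used here, and 57.4% with upper quartile scaling. None of the 10 directions turned under 4 ways of scaling the libraries. Together the 10 genes took 0.623 ± 0.0453% of the assigned reads in controls and 0.45 ± 0.0402% in Kir2.1-OE pools (SD, n = 3 each).

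Transcript length moved with genotype in these libraries. The 3801 genes tested whose longest transcript lies within the range of the tubulins, 1610 to 2840 nucleotides, had a median log2 fold change of -0.17, against 0.01 over all genes tested and -0.23 (-0.225) over the 10 tubulins. When the model was given an offset per gene and library for the trend with transcript length and GC content, these medians became -0.00, 0.02 and -0.11. The share of all genes called then fell to 7.46% higher and 2.37% lower, and the share at an adjusted p under 0.05 to 17.5% higher and 15% lower. The value with offsets is therefore given for each tubulin.

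**Figure D1:**
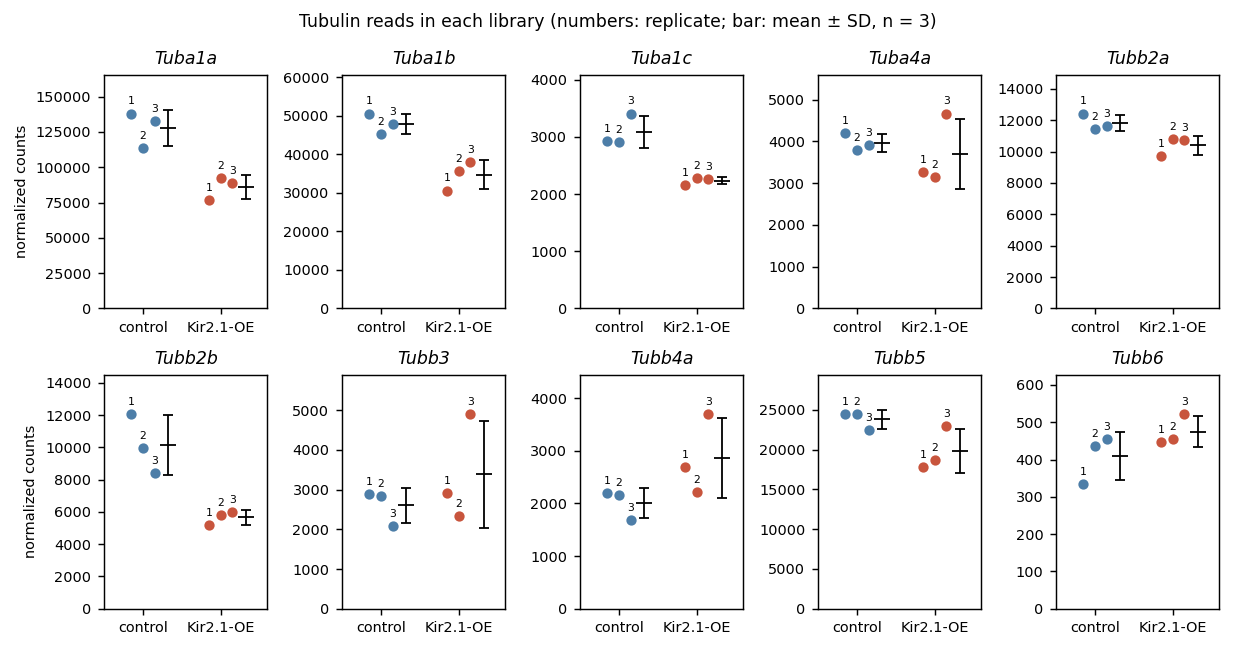
Normalized counts, on axes that start at 0, of the 10 tubulin genes in each library, with the control pools in blue, the Kir2.1-OE pools in red and the mean ± SD (n = 3) as a bar beside them. Tuba1a, Tuba1b, Tuba1c, Tubb2a and Tubb2b were lower in every Kir2.1-OE pool than in any control pool, and in the panels of Tuba4a, Tubb3, Tubb4a and Tubb6 the point of Kir2.1-OE replicate 3 stands highest.

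Tuba1a encodes the main alpha tubulin of developing neurons, and mutations in the human gene disturb cortical development. Its normalized counts were 137990, 113540 and 132460 in control replicates 1 to 3 and 76481, 92509 and 89135 in Kir2.1-OE replicates 1 to 3. Every Kir2.1-OE pool lay below every control pool, as was so for 29.9% of all genes tested. The level was 1.49-fold lower, just inside the 1.5-fold limit for a call, with a log2 fold change of -0.57 (SE 0.109, 95% interval -0.81 to -0.33) and a Benjamini-Hochberg adjusted p of 0.00166 in the edgeR test. With the offsets it was -0.33 (adjusted p = 0.0205).

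Tuba1b and Tuba1c, broadly expressed alpha tubulins, were lower by almost the same amount. Tuba1b had 50546, 45320 and 47756 normalized counts in controls and 30580, 35659 and 37946 in Kir2.1-OE pools, with a log2 fold change of -0.46 (SE 0.0966, edgeR adjusted p = 0.00274). Tuba1c had 2931.6, 2910.3 and 3408.9 in controls and 2165.7, 2282.4 and 2256.4 in Kir2.1-OE pools, with a log2 fold change of -0.46 (SE 0.0793, edgeR adjusted p = 0.000926). The groups did not overlap for either gene. With the offsets the log2 fold changes were -0.24 for Tuba1b (adjusted p = 0.0483) and -0.33 for Tuba1c (adjusted p = 0.00602), so both stayed under 0.05, Tuba1b narrowly.

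The sum of these genes is free of any split among them, though not of reads shared with pseudogenes. Tuba1a, Tuba1b and Tuba1c together had 191470, 161770 and 183630 normalized counts in controls and 109230, 130450 and 129340 in Kir2.1-OE pools, a log2 ratio of group means of -0.54 with no overlap. With the offsets the ratio was -0.31, again without overlap. Within the sum, Tuba1a held 72.1%, 70.2% and 72.1% of the reads in controls and 70%, 70.9% and 68.9% in Kir2.1-OE pools. These shares overlapped, while the total they divide did not.

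Tuba4a differed from the other alpha genes in pattern. Its normalized counts were 4205.7, 3789 and 3907.6 in controls and 3277.3, 3155.8 and 4668.4 in Kir2.1-OE pools, so that Kir2.1-OE replicates 1 and 2 lay below all controls and replicate 3 above them. The log2 fold change was -0.10 (SE 0.142, edgeR adjusted p = 0.586), and -0.05 with the offsets (adjusted p = 0.821). Without Kir2.1-OE replicate 3 it was -0.32 (edgeR adjusted p = 0.00829). As a share of alpha tubulin reads per kilobase, Tuba4a was 1.365%, 1.454% and 1.324% in controls and 1.855%, 1.501% and 2.222% in Kir2.1-OE pools, without overlap. The gap was small, from 1.454% in the highest control to 1.501% in the lowest Kir2.1-OE pool, and with the offsets the groups overlapped.

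Among the beta genes, Tubb2b had the largest fall. Tubb2b is a beta tubulin of developing neurons, and mutations in the human gene are linked to cortical malformations. Its normalized counts were 12084, 9939.5 and 8386.3 in controls and 5163.9, 5826.9 and 6007.6 in Kir2.1-OE pools. The 3 Kir2.1-OE pools sat close together below all controls, which were spread more widely. The gene was 1.79-fold lower, with a log2 fold change of -0.84 (SE 0.126, 95% interval -1.12 to -0.56) and a Benjamini-Hochberg adjusted p of 0.000646 in the edgeR test. With the offsets it was -0.65 (-0.645, adjusted p = 0.00619), still past the 1.5-fold limit, and it was the only member called under either fit.

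Tubb2a, the neighbour whose coding tail is nearly the same, moved less. Its normalized counts were 12420, 11411 and 11650 in controls and 9693.4, 10772 and 10734 in Kir2.1-OE pools. The groups did not overlap, but the log2 fold change of -0.19 (SE 0.0753) missed the threshold, with an edgeR adjusted p of 0.0613. It passed with library size alone (adjusted p = 0.0463), upper quartile scaling (0.013) and DESeq2's Wald test (0.0346). With the offsets the direction turned, to 0.07 (adjusted p = 0.449). Of the reads of both genes, Tubb2b held 49.3%, 46.6% and 41.9% in controls and 34.8%, 35.1% and 35.9% in Kir2.1-OE pools, again without overlap. The sum of the pair fell from 21960 ± 2300 to 16070 ± 1050 normalized counts (SD, n = 3 each), a log2 ratio of -0.45, and each Kir2.1-OE sum was below each control sum. With the offsets the ratio was -0.22, without overlap.

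Tubb5, the general beta tubulin of most tissues, had 24493, 24473 and 22401 normalized counts in controls and 17862, 18651 and 22929 in Kir2.1-OE pools. Replicates 1 and 2 were below all controls, and replicate 3 lay among them. The log2 fold change was -0.26 (SE 0.101) with an edgeR adjusted p of 0.0496, on the edge of the threshold, and -0.17 with the offsets (adjusted p = 0.205). The call at 0.05 held without Kir2.1-OE replicate 3, at an adjusted p of 0.00608, and was lost when any of the other 5 libraries was left out.

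Tubb3 and Tubb4a, both abundant in neurons, had higher means in Kir2.1-OE pools, with neither past the threshold. Tubb3 had 2891.4, 2829.5 and 2092.8 normalized counts in controls and 2923.2, 2324.4 and 4904.3 in Kir2.1-OE pools, where replicates 1 and 2 were close to the controls and replicate 3 was well above them, so that the groups overlapped. The log2 fold change was 0.38 (SE 0.313, 95% interval -0.41 to 1.17, edgeR adjusted p = 0.366), 0.51 with the offsets (adjusted p = 0.308) and -0.00 (-0.0042) without Kir2.1-OE replicate 3. Tubb4a, which is also a main beta tubulin of myelinating oligodendrocytes, had 2195.2, 2157.1 and 1687.6 in controls and 2693.3, 2211.5 and 3701.5 in Kir2.1-OE pools. Its groups did not overlap, as for 31.7% of all genes in that direction, but the lowest Kir2.1-OE pool exceeded the highest control by little. The log2 fold change was 0.51 (SE 0.198, edgeR adjusted p = 0.069) and 0.57 with the offsets (adjusted p = 0.108). Without Kir2.1-OE replicate 2, Tubb4a was called higher (0.64, adjusted p = 0.011).

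Tubb6, a minor beta tubulin in this tissue, had 335.1, 437.05 and 456.01 normalized counts in controls and 447.52, 454.68 and 522.58 in Kir2.1-OE pools. The groups overlapped through control replicate 3. The log2 fold change was 0.21 (SE 0.135, edgeR adjusted p = 0.211), and with the offsets 0.41 (adjusted p = 0.0383). With the offsets, 4 members were therefore lower at an adjusted p under 0.05 (Tuba1a, Tuba1b, Tuba1c and Tubb2b) and 1 higher (Tubb6). Over all genes tested, 15% were lower and 17.5% higher by that rule.

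**Figure D2:**
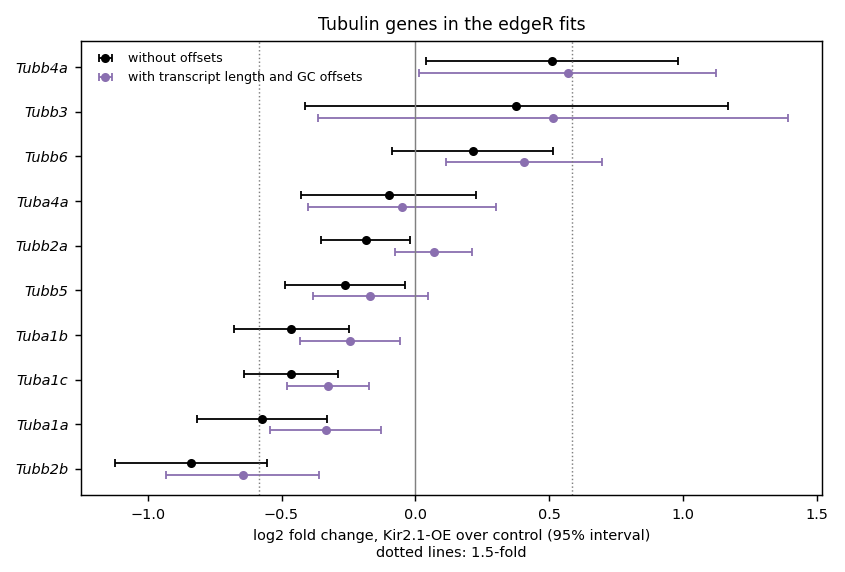
Log2 fold change of each tubulin gene, Kir2.1-OE over control, with 95% intervals from the edgeR fit (3 against 3 pools), in black without and in violet with offsets for transcript length and GC content; dotted lines mark 1.5-fold in either direction. Tubb2b at -0.84 and, with offsets, -0.65 (-0.645) lies beyond the left line in both fits, and Tubb3 has the widest interval, -0.41 to 1.17.

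The mix of isotypes was compared within each family, since shares within a family do not depend on how libraries are scaled. A share is the gene's reads per kilobase of its longest transcript over those of the members of its family. No test was made of shares, and 3 against 3 pools cannot go below an exact p of 0.1. Tubb2b held 21.96%, 19.29% and 17.73% of beta tubulin in controls and 13.03%, 14.13% and 12.15% in Kir2.1-OE pools, a difference of -6.56 percentage points without overlap. Tubb4a went the other way, from 3.906%, 4.1% and 3.495% to 6.657%, 5.252% and 7.332%, also without overlap. Tubb3 held 6.137%, 6.415% and 5.169% in controls and 8.618%, 6.584% and 11.59% in Kir2.1-OE pools, which were all above the controls, one of them barely, and with the offsets the groups overlapped. Tubb5, the most abundant of the 6 beta members per length, had a share of 38.27 ± 1.39% in controls and 37.53 ± 0.582% in Kir2.1-OE pools, and with the offsets 39.21% and 36.65% without overlap. Tubb2a had a share of 31.33 ± 1.8% and 32.66 ± 3.02%. Tubb6 was between 0.7557% and 1.197% of beta tubulin in controls and between 1.312% and 1.402% in Kir2.1-OE pools.

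The alpha mix moved little. Tuba1a made up 69.94 ± 1.15% of alpha tubulin in controls and 68.1 ± 1.25% in Kir2.1-OE pools, and Tuba1b 27.14 ± 1.05% and 28.42 ± 0.914% (SD, n = 3 each), and both overlapped between the groups. Alpha members summed had a log2 ratio of group means of -0.53 without overlap, and -0.30 (-0.303) with the offsets. Beta members summed fell from 50780 ± 3890 to 42610 ± 5410 normalized counts, a log2 ratio of -0.25, and -0.10 with the offsets. Kir2.1-OE replicate 3 lay inside the control range of that sum both without and with the offsets. The ratio of the 4 alpha to the 6 beta members in reads per kilobase was 4.33 ± 0.456 in controls and 3.54 ± 0.34 in Kir2.1-OE pools, and the groups overlapped. Counting Tubb4b with the beta genes, the ratio was 2.07, 1.91 and 2.07 in controls and 1.57, 1.69 and 1.66 in Kir2.1-OE pools, without overlap.

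**Figure D3:**
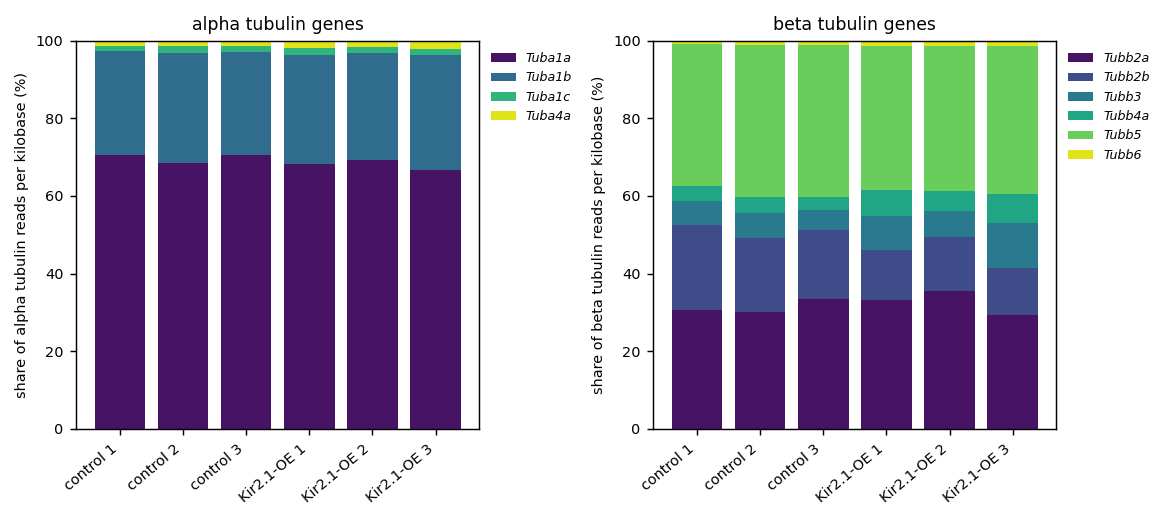
Share of each gene in the reads per kilobase of the alpha members (left) and beta members (right), in percent, with 1 stacked bar for each pool. The band of Tubb2b is narrower in the 3 Kir2.1-OE bars (12.15% to 14.13%) than in the 3 control bars (17.73% to 21.96%), while Tuba1a holds 66.82% to 70.67% of alpha tubulin in all 6.

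Genes of other cell types moved with some of these values, and their part in the tubulin values was not tested. Of the 10 neuron markers, 3 were called higher (Elavl3, Rbfox3 and Syn1) and 1 lower (Uchl1), and none was at 0 in any library. Marker counts stand against 15.3% of all genes called higher and 5.07% called lower. With the offsets 2 neuron markers were called higher (Elavl3 and Rbfox3) and 0 lower, against 7.46% and 2.37% of all genes. Taken relative to each marker's control mean, the median of the 10 was 1.06, 1.06 and 0.814 in control replicates 1 to 3 and 1.55, 1.04 and 2.45 in Kir2.1-OE replicates 1 to 3. Summed, the list ranged from 19989 to 27282 normalized counts in controls and from 17366 to 27008 in Kir2.1-OE pools, a sum in which Uchl1 was the largest item. Kir2.1-OE replicate 3 was the highest of the 6 libraries for 7 of the 10 neuron markers and for 4 of the 10 tubulins, namely Tuba4a, Tubb3, Tubb4a and Tubb6. The same library was highest for 5 of 6 glia markers, 5 of 8 cycling cell markers and 3 of 4 stathmins. How often this library was highest over all genes was not counted, so no excess can be read from these counts. Over the 6 libraries Tubb4a correlated with the summed level of the cycling cell list at r = 0.91, of the glia list at 0.737 and of the neuron list at 0.383, and Tubb3 at 0.749, 0.575 and 0.666. Among the 10 tubulins, Tuba4a (0.911) and Tubb5 (0.831) were closest to the summed neuron list and Tubb6 (0.894) to the summed glia list. Correlations with the neuron list lean on Uchl1, itself called lower. It held 18590 of the 27282 counts in control replicate 1 and 10130 of the 27008 in Kir2.1-OE replicate 3. Tuba1a ran opposite to the cycling cell list (-0.884) and the glia list (-0.824), and had 0.397 with the neuron list. The 6 glia markers were all higher at an adjusted p under 0.05 in edgeR's test, against 27.1% of all genes, and their sum was between 257200 and 327440 in controls and between 353150 and 464540 in Kir2.1-OE pools, with none at 0. With the offsets 5 of the 6 glia markers were higher by that rule, against 17.5% of all genes. Of 8 cycling cell markers 2 were called higher (Mki67 and Top2a). Mesenchyme markers summed to between 177020 and 249010 in controls and between 284970 and 330430 in Kir2.1-OE pools, with 1 of 5 called higher (Coch). Col1a2, the largest item of that sum, had a log2 fold change of 0.52 (0.517), and 0.00 (0.00388) with the offsets. The median of the mesenchyme list went from 0.52 (0.517) to 0.03 (0.0315) with them. At an adjusted p under 0.05 without the offsets, 3 of the 5 mesenchyme markers were higher and 1 lower, against 27.1% and 23.5% of all genes. The lower one was Dcn, at -0.41 (edgeR adjusted p = 0.00454), and -0.31 with the offsets (adjusted p = 0.0151). Of 7 supporting and pillar cell markers, a cell type rich in microtubules, 1 was called higher (Prox1), and their sums overlapped at 62886 to 73904 in controls and 65054 to 73757 in Kir2.1-OE pools. At an adjusted p under 0.05 without the offsets, 2 of the 7 were higher and 1 lower. The lower one was Lfng, at -0.44 (edgeR adjusted p = 0.00623), and -0.44 with the offsets (adjusted p = 0.00957). Mki67, Top2a, Coch and Prox1 kept their calls with the offsets.

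**Figure D4:**
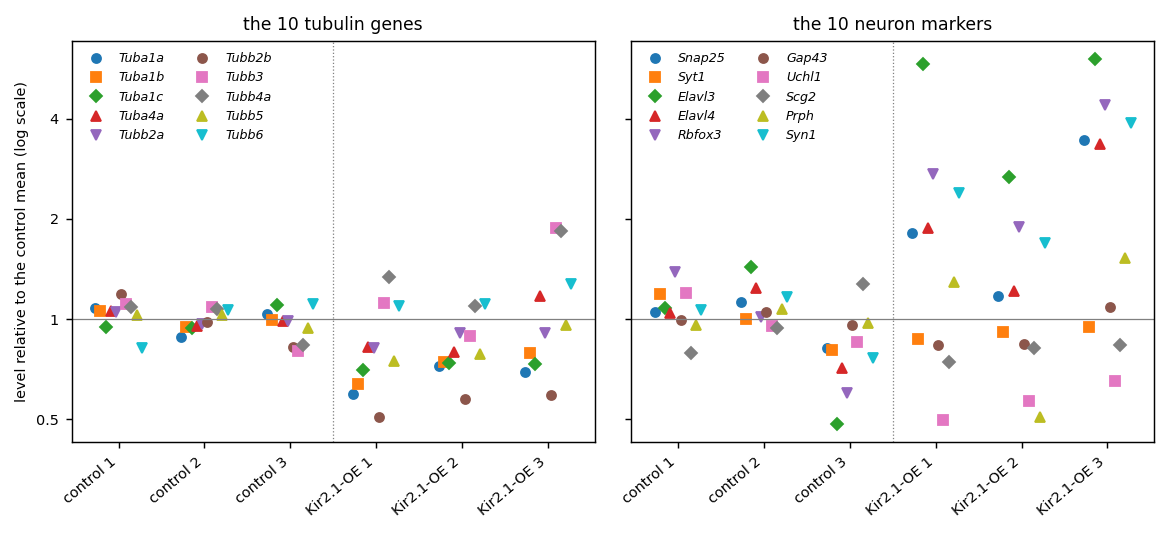
Level of each of the 10 tubulin genes (left) and of the 10 neuron markers (right) in each library relative to the mean of the 3 control pools, on a log axis with 1 marking that mean. Tubb3 and Tubb4a stand highest on the left in Kir2.1-OE replicate 3, the library in which the median neuron marker is 2.45 times its control mean.

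The genes whose log2 normalized counts followed Tubb3 most closely over the 6 libraries, among 13644 genes compared, were Nrn1 (Pearson's r = 0.995), Ccdc184 (0.991), Atp1b1 (0.9892), Rian (0.9881) and Wwox (0.9871). Nrn1, which encodes the neurite-promoting protein neuritin, had 487.6, 476.1 and 331.8 normalized counts in controls and 537.8, 357.7 and 972.2 in Kir2.1-OE pools. All 5 genes peaked in Kir2.1-OE replicate 3, as Tubb3 did, and over the other 5 libraries their r with Tubb3 was between 0.944 and 0.987. Among the tubulins, Tubb3 was closest to Tubb4a (r = 0.936 over the 6 libraries, 0.779 without Kir2.1-OE replicate 3), while Tuba1a was closest to Tuba1b (r = 0.977), a pair that shares most of its sequence. With 6 points these values describe the libraries and no more.

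Genes that act on tubulin were described from 7 lists. New tubulin chains are folded by the chaperonin CCT after delivery by prefoldin, and 14 of 14 genes of this list were lower at an adjusted p under 0.05 in edgeR's test, against the 23.5% of all genes given above, with a median log2 fold change of -0.47. By the rule for a call, 2 of the 14 were lower, against 5.07% of all genes. Pfdn5, a prefoldin subunit, went from 9556 ± 628 to 5443 ± 606 normalized counts (log2 fold change -0.81, SE 0.0933, edgeR adjusted p = 0.000131). Vbp1, another prefoldin subunit, went from 3888 ± 33.8 to 2580 ± 241 (-0.59, SE 0.0786, edgeR adjusted p = 0.000253). With the offsets none of the 14 was called, 7 were lower at an adjusted p under 0.05, against 15% of all genes, and the median was -0.20 (-0.195).

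The tubulin folding cofactors pair the folded subunits into dimers. Of 7 such genes 3 were lower at an adjusted p under 0.05 (Tbca, Tbcb and Arl2) and 0 higher, against 23.5% and 27.1% of all genes, with a median log2 fold change of -0.19. Tbca, which holds folded beta tubulin, was the one called, from 3334 ± 167 to 1938 ± 254 normalized counts (-0.78, SE 0.0952, edgeR adjusted p = 0.000163). Its transcript is short, at 633 nucleotides, and with the offsets its value was -0.20 (-0.195, adjusted p = 0.0591). With the offsets the 3 genes lower at an adjusted p under 0.05 were Arl2, Tbcd and Tbcel, against 15% of all genes.

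The machinery that degrades tubulin mRNA during translation was followed through 3 genes. Ttc5, which reads the start of the new tubulin chain on the ribosome, was lower by a small amount, from 1908 ± 71.5 to 1608 ± 31 normalized counts (-0.25, SE 0.0695, edgeR adjusted p = 0.0131), and had -0.01 (-0.00865) with the offsets. Scaper, the adaptor that joins it to the deadenylase, was called higher, from 581.9 ± 92.7 to 1031 ± 153 (0.83, SE 0.138, edgeR adjusted p = 0.000965), and was also called with the offsets, at 0.73. Cnot11, a subunit of the CCR4-NOT deadenylase complex, had 1560 ± 56.3 and 1589 ± 14.7 normalized counts (0.03, edgeR adjusted p = 0.774).

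Enzymes that modify tubulin after it is made include those that set the length of the glutamate chains and the state of the terminal tyrosine. The list used here also holds genes for other modifications, such as acetylation. Of 22 genes of the list tested, 6 were called higher and 1 lower, against the 15.3% and 5.07% of all genes. With the offsets 3 were called higher and 1 lower, against 7.46% and 2.37% of all genes. The median log2 fold change was 0.24, the same to 2 decimals with the offsets. Ttll7, a ligase that adds glutamate chains to tubulin tails, went from 889.1 ± 47.2 to 1723 ± 244 normalized counts (0.95, SE 0.108, edgeR adjusted p = 0.000127), and had 0.72 with the offsets. Agbl3, a carboxypeptidase of the family that shortens such chains, went from 445.3 ± 40.6 to 256.3 ± 24.8 (-0.80, SE 0.127, edgeR adjusted p = 0.000648), and had -0.81 with the offsets. Both kept their calls there, as did Vash1, which removes the terminal tyrosine of alpha tubulin, and the low-level gene Ttll6. Vash1, named after its values were seen, had 1039, 1086 and 927.3 normalized counts in controls and 1948, 1745 and 1997 in Kir2.1-OE pools, far apart.

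The remaining lists gave few calls. Of 10 other tubulin genes 6 were expressed well enough to be tested, and none was called or had an adjusted p under 0.05 in edgeR's test without the offsets. With them 2 of the 6 were higher at an adjusted p under 0.05, against 17.5% of all genes, and neither was called. These were Tubg1 (0.27, edgeR adjusted p = 0.0185) and Tubg2 (0.56, edgeR adjusted p = 0.0233). Tubb4b, the most abundant of the 6 and outside the 10 genes, had 42800 ± 3260 and 36330 ± 2960 normalized counts (-0.24, edgeR adjusted p = 0.0536), and 0.03 with the offsets, much as Tubb2a did. None of 4 stathmins, proteins that bind free dimers, passed in either direction without the offsets, with a median of 0.52. For all but Stmn1, the most abundant, the spread between Kir2.1-OE pools was wide. With the offsets Stmn1 was higher, at 0.39 (edgeR adjusted p = 0.00986), the only 1 of the 4 under 0.05, against 17.5% of all genes. Of 15 genes of microtubule nucleation and microtubule ends, 5 were higher and 5 lower at an adjusted p under 0.05, with a median of -0.00, where 15 genes stand against shares of 27.1% and 23.5% over all genes. Fign, which encodes the severing enzyme fidgetin, was the one called, from 224.7 ± 13 to 441.8 ± 28.1 (0.97, SE 0.118, edgeR adjusted p = 0.000161), and had 0.75 with the offsets.

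**Figure D5:**
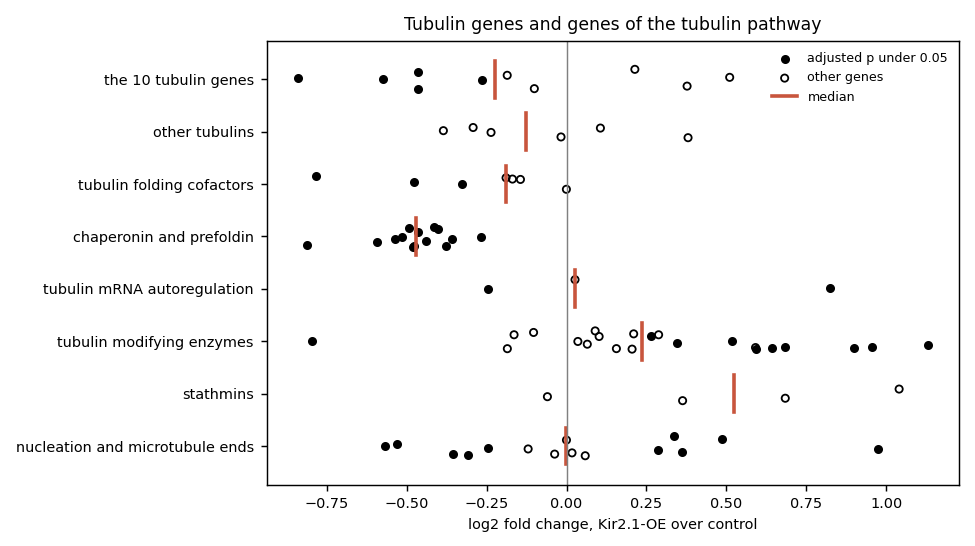
Log2 fold change, Kir2.1-OE over control, of each tested gene in the 10 tubulins and in 7 lists of the tubulin pathway, with filled points for an adjusted p under 0.05 in edgeR's test and a red line for each median. All 14 chaperonin and prefoldin genes lie to the left of 0 (median -0.47), while the modifying enzymes have a median of 0.24.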

How the data were processed

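RNA of P9 cochlear sensory epithelium was sequenced by the study after poly(A) enrichment, mapped to mm10 with the nf-core RNA pipeline at standard parameters and quantified with Salmon. The authors deposited expected counts per gene symbol, not divided by length or library size. Tool versions, annotation and strand setting are not given in the sources used here. The file recorded for control replicate 1 carries another number in its header, and the recorded sample was used.

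After rounding of the expected counts, edgeR 4.0.16 (R 4.3.3) was run with TMM factors of 0.984 to 1.01, filterByExpr (15303 genes kept), the robust quasi-likelihood test and Benjamini-Hochberg adjustment over all genes. A call required both a fold change above 1.5 and an adjusted p-value under 0.05. Fold changes are log2 values, Kir2.1-OE over control. Normalized counts were scaled by TMM library sizes. Length and GC content came from the longest GENCODE vM21 transcript, with 23376 symbols matched directly, 659 through an older symbol and 376 not matched, and offsets were loess trends (span 0.4), per library, of its log2 ratio to the average of the libraries. No 2 libraries of a group agreed within sampling noise (chi-square per degree of freedom 15.7 to 31.1). Where nothing ties pools to separate litters, p-values measure the spread between these pools.

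The members and lists were chosen with earlier results of these data known. The genes named are all members, Kcnj2, in each pathway list the called gene with the highest and the lowest log2 fold change (mean normalized count of at least 50), every gene of a list of up to 3 genes, and the 5 genes most correlated with Tubb3. Marker genes are named where a marker list is described. Tubb4b, Tubg1, Tubg2, Tbcb, Tbcd, Tbcel, Arl2, Stmn1, Vash1 and Ttll6 fall outside this rule and were chosen after their values were seen.

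Alternatives were DESeq2 1.42.0 size factors and its Wald test, library size alone, upper quartile scaling, no filter, a minimum of 10 counts, limma-voom (limma 3.58.1), unrounded counts, a replicate block, the offsets with and without the block, coding length or no length for shares, and each library left out. Sums and shares with the offsets were added after the data were seen. On simulated data for this comparison, the edgeR model recovered 91.96% of 200 changed genes among 15214 and called 2 unchanged genes. With a trend linear in log2 transcript length added, and none in GC content, it called 1801 unchanged genes of 15216 without the offsets and 0 with them. The offsets are built to remove such a trend. This simulation therefore cannot show whether they also remove true changes linked to length. A gene of 0 reads could not be told from a level of up to 3 reads, which bears on no member. Some items are not reported here.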

Additional observations from a re-analysis of the deposited data

How the results depend on the processing

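Tubb2b was called lower in all 17 alternatives, and its log2 fold change lay between -0.96 and -0.69 with 1 library left out. The number of members called lower was 2 under upper quartile scaling, when Tuba1a (-0.66) joined Tubb2b, and 1 to 2 with 1 library left out, being 2 without Kir2.1-OE replicate 2, Kir2.1-OE replicate 3 or control replicate 2. Members called higher numbered 0 to 1 with 1 library left out, the 1 being Tubb4a without Kir2.1-OE replicate 2. At an adjusted p under 0.05, 1 member was higher with DESeq2's Wald test and with limma-voom (Tubb4a) and with the length and GC offsets (Tubb6), and 0 to 1 with 1 library left out. By the same rule 4 to 6 members were lower with 1 library left out, and 6 with library size alone, upper quartile scaling or DESeq2's Wald test, which add Tubb2a. Replicate numbers did not pair the pools: deviations of same-numbered pools correlated at -0.0984, -0.222 and -0.209, and no pool correlated best with its own number. With the replicate block 4 members were lower at an adjusted p under 0.05, Tubb5 being lost (adjusted p = 0.0983), and with the block and the offsets 2 were, Tuba1c and Tubb2b, with Tuba1a at an adjusted p of 0.0797 and Tuba1b at 0.127. Over all genes, 1142 were called higher and 362 lower with the offsets, 897 and 305 with the block and the offsets, and 1379 lower with upper quartile scaling. Tubb2a turned to 0.07 (0.068) with the offsets and to 0.07 (0.0683) with the block and the offsets. Tubb3 lay between -0.0042 and 0.56 with 1 library left out, the lowest without Kir2.1-OE replicate 3. The share difference of Tubb2a lay between -0.0389 and 2.95 percentage points and that of Tuba1c between -0.0103 and 0.135, lowest for Tubb2a when Kir2.1-OE replicate 2 and for Tuba1c when control replicate 1 was left out. The cause of these changes was not tested. With the offsets, added here after the data were seen, the log2 ratio of summed Tuba1a, Tuba1b and Tuba1c was -0.31, of Tubb2a and Tubb2b -0.222 and of the alpha members -0.303, and the share differences of Tuba1c and Tubb5 were -0.0242 and -2.56 percentage points. No other member's log2 fold change changed direction in the 17 alternatives, no other share did under other lengths, the offsets or with a library left out, and no sum did under other scalings, the offsets or with a library left out. Depth limits no member, whose lowest level is 335.1 normalized counts, and among the members Tubb3 has the widest interval, -0.41 to 1.17.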
